A study of Sus scrofa with 6 samples.

Results

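The acute-phase genes described here are Saa3, Saa1, Saa2, Hp, Lcn2 and Serpina3n, 6 of the 32285 gene features counted in each library, matched by their exact symbols. The members were chosen by their measured UMI levels in these same libraries, so every level below is a description and none was tested. Their identifiers are ENSMUSG00000040026 (Saa3), ENSMUSG00000074115 (Saa1), ENSMUSG00000057465 (Saa2), ENSMUSG00000031722 (Hp), ENSMUSG00000026822 (Lcn2) and ENSMUSG00000021091 (Serpina3n).

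Single-cell RNA sequencing was done on 6 libraries of unsorted skin cells, 1 per label and so without replicates. By the labels the donors were red duroc pigs. The library labelled normal is untreated skin and the library labelled irradiated is skin after radiation. The other four carry a 1 mg patch of deferoxamine (an iron chelator), worn for 2 weeks ahead of radiotherapy (pretreatment), for 18 weeks in all (continuous), during 12 weeks of recovery (acute) or for 4 weeks once recovery was over (chronic). The labels do not say how many animals a library holds. All gene features were mouse Ensembl identifiers, and every library except pretreatment and continuous also held 4 anti-mouse hashtag antibodies. The names below are therefore labels only, and with 1 library each, a label, an animal and a sequencing run cannot be told apart.

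The acute-phase response is the surge of plasma proteins that follows injury or infection, driven mainly by the cytokines IL-6, IL-1 and TNF acting through STAT3, NF-kB and C/EBP factors. The liver makes most of these proteins, but skin, fat and leukocytes make some of them on site. Serum amyloid A proteins are lipid-binding apolipoproteins that attract leukocytes, and Saa3 is the form made mostly outside the liver in mice. Haptoglobin (Hp) binds free haemoglobin, lipocalin 2 (Lcn2) captures the bacterial iron carriers called siderophores, and Serpina3n inhibits serine proteases.

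The libraries held 1811 to 25052 barcodes and 18611144 to 54966435 gene UMIs (unique molecular identifiers, each 1 captured RNA molecule). After a filter, 1499 to 24132 cells were kept, with a median of 1385 to 9651 UMIs. Between 3 and 153 barcodes were shared by any 2 libraries, at most 0.773% of the smaller one. The library labelled pretreatment stood apart, with the fewest cells (1499), the deepest ones (median 9651 UMIs, against 1385 to 3267 in the others) and 21 neutrophils. Results are therefore given per library, and ranges are given with and without pretreatment.

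Cells were put into classes by marker genes that include none of the 6 genes, and cells with markers of a second class were left out. A level is given as CPM, the usual scaling of a gene's UMIs by the UMIs of all genes, summed over the cells of a class in 1 library. The classes used most were neutrophils (24404 cells), macrophages or monocytes (22016), fibroblasts (6491), T or natural killer cells (5674), keratinocytes (1659) and adipocytes (343). The adipocyte class was added after the data had been seen. Its cells took 0.133% to 0.655% of a library, and 342 of the 343 fell into 1 cluster of a clustering made without the 6 genes. That cluster was led by Cfd, Car3, Mup11, Fabp4 and Cidec. The summed level of the 5 adipocyte markers was 21362 to 35239 CPM in adipocytes and 1.28 to 31.3 CPM in fibroblasts. These genes, like the fibroblast markers, define the classes, so such contrasts follow from the gate. Fibroblast markers summed to 37469 to 74835 CPM in fibroblasts, and liver cell markers to 1.02 to 4.61 CPM there and 9.82 to 38.0 CPM in adipocytes.

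Brackets hold exact 95% Poisson intervals for levels and ratios and Clopper-Pearson intervals for shares, which cover counting error only. Levels count 3' ends and are compared between cells and libraries for 1 gene, not between genes. Unnamed lists run from normal and irradiated to the patch libraries, these being pretreatment, continuous, acute and chronic in that order.

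Over all kept cells the members fell into 2 patterns across libraries. Saa3 stood at 13799 CPM for normal, 8807 for irradiated, 219 for pretreatment, 5101 for continuous, 8039 for acute and 5608 for chronic. Hp stood at 719, 522, 40.5, 828, 637 and 731 CPM and Lcn2 at 2157, 1448, 92.3, 1916, 1054 and 1194 CPM. All 3 were lowest in pretreatment, by a wide margin. Serpina3n went the other way, at 207, 212, 1227, 292, 225 and 155 CPM, with its highest level in pretreatment. Saa1 (36.1, 55.5, 4.12, 108, 28.8 and 32.6 CPM) and Saa2 (8.21, 15.0, 0.613, 69.7, 11.3 and 27.9 CPM) were both highest in continuous and lowest in pretreatment. These totals mix libraries of different cell makeup, so the classes are described next.

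**Figure D1:**
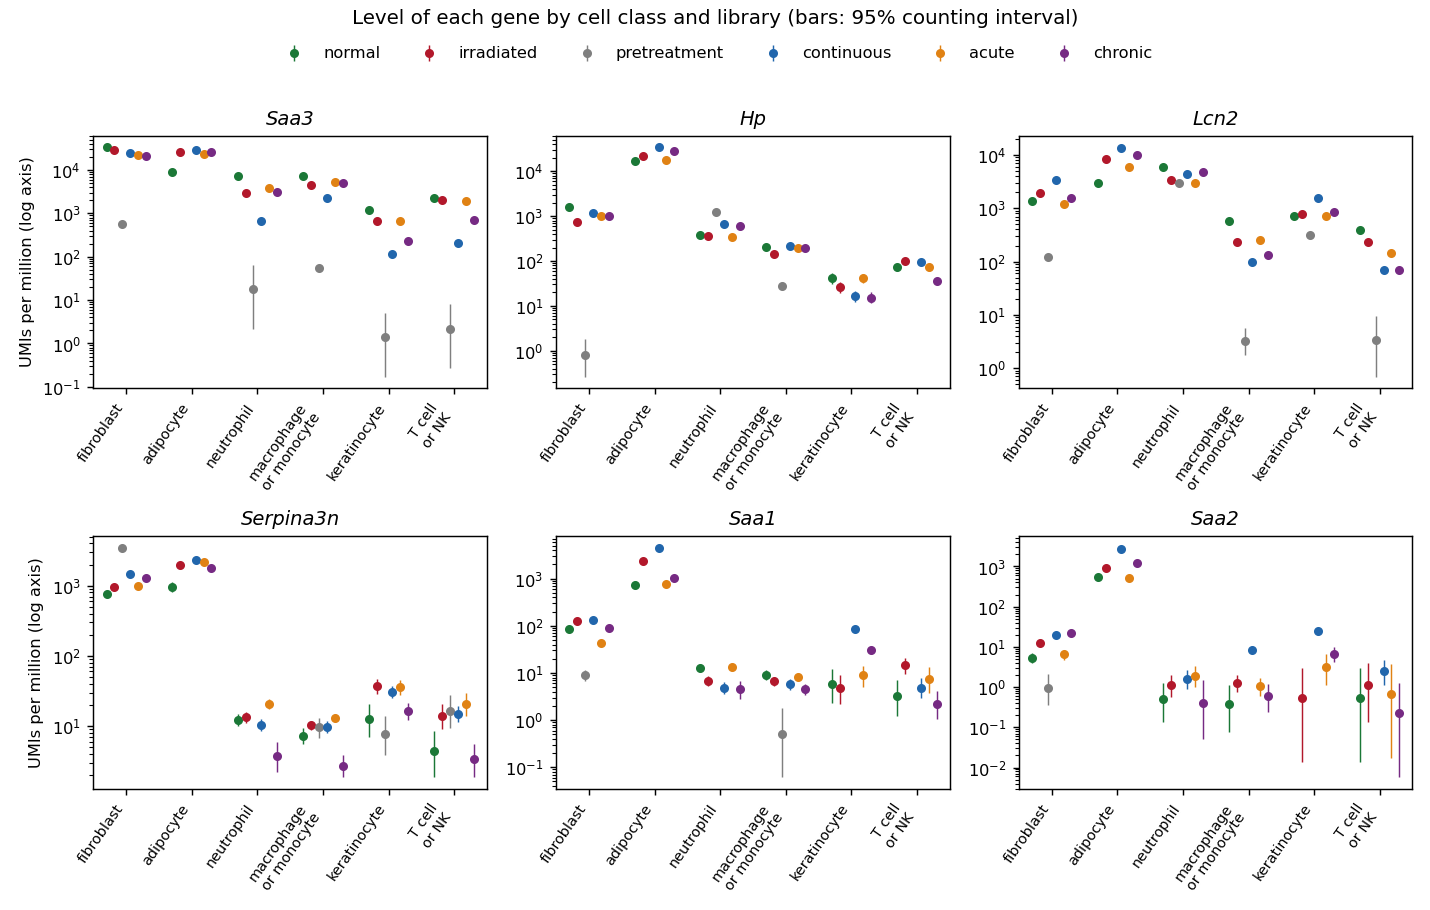
Level of each gene (CPM, log axis) in 6 cell classes, 1 point per library with its 95% counting interval; classes under 20 cells and levels of 0 are not drawn. Hp stands between 17285 and 34047 CPM in adipocytes and at most at 1588 CPM in fibroblasts, while Saa3 stands between 20724 and 33583 CPM in fibroblasts and between 8804 and 28754 CPM in adipocytes in the libraries other than pretreatment.

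Saa3, the local serum amyloid A, was highest in fibroblasts and adipocytes in irradiated, continuous, acute and chronic. In fibroblasts it reached 33583 CPM (33466 to 33700.5) for normal, 29144 for irradiated, 556 (538 to 575) for pretreatment, 24087 for continuous, 22704 for acute and 20724 for chronic. Without pretreatment the range was 20724 to 33583 CPM, so that this 1 gene made up 2.07% to 3.36% of all fibroblast RNA molecules counted. Fibroblasts had the highest Saa3 of any class in normal, irradiated and pretreatment, and adipocytes in continuous, acute and chronic. Adipocytes stood at 8804 CPM (8347 to 9279) for normal, 25624 for irradiated, 28754 for continuous, 23462 for acute and 25654 for chronic. In normal they came after fibroblasts and after 22 Schwann cells at 10250 CPM (9189 to 11399).

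At full depth a Saa3 UMI was seen in nearly every fibroblast in 3 of the libraries. The part of RNA shared between droplets in these shares was not tested. A Saa3 UMI was seen in 97.0% of fibroblasts for normal, 96.5% for irradiated, 17.6% (14.3 to 21.4) for pretreatment, 76.7% for continuous, 94.7% for acute and 87.1% for chronic. With each cell thinned to 1000 UMIs and shallower cells left out, these shares were 90.6%, 85.5%, 8.55%, 60.0%, 84.5% and 72.1%. Fibroblasts of pretreatment were the deepest (median 12308 UMIs, against 3994 to 9443) and still held Saa3 least often.

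Cells differed widely within a library. In normal, the 10th percentile, median and 90th percentile of Saa3 over fibroblasts were 737, 20758 and 79212 CPM. In continuous they were 0, 4825 and 53759 CPM, and in pretreatment 0, 0 and 339 CPM. The low level of pretreatment thus came from a minority of positive cells, and the spread in continuous ran from cells with none to cells above 53759 CPM.

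T or natural killer cells are not known to make Saa3 and serve here as a gauge of RNA shared between droplets. Their Saa3 level was 2216 CPM for normal, 2024 for irradiated, 2.21 for pretreatment, 204 for continuous, 1894 for acute and 686 for chronic. After thinning, 58.2%, 58.2%, 0.847%, 14.2%, 61.7% and 23.7% of them held a Saa3 UMI. Their median depth was 1462, 1377, 5714, 2702, 1064 and 2218.5 UMIs, against 4217.5, 5212, 12308, 9443, 3994 and 7802 in fibroblasts. The Saa3 share was higher in fibroblasts in all 6 libraries, while shares in classes at or under the T cell share cannot be read as expression.

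Keratinocytes were under the T cell share in 5 of the 6 libraries after thinning (45.6%, 40.7%, 1.28%, 13.0%, 42.2% and 17.0%), the exception being pretreatment, where 1 keratinocyte and 1 T cell held it. Neutrophils had 7351, 3018, 17.9, 677, 3907 and 3078 CPM of Saa3, above the T cell level in each library, though on 2 UMIs in pretreatment. Macrophages or monocytes had 7163 CPM for normal, 4529.5 for irradiated, 56.4 for pretreatment, 2251 for continuous, 5236 for acute and 5119 for chronic. That was 9.35% to 24.7% of the fibroblast level, and the fibroblast collagen Col1a1 in the same cells stood at 0.215% to 1.68% of its fibroblast level. Col1a1 is itself a marker of the fibroblast class, so its low level in other classes is partly set by the gate. T cells also had a larger share of the fibroblast level for Saa3 (0.847% to 8.34%) than for Col1a1 (0.266% to 1.93%) in the 5 libraries other than pretreatment. The part of free RNA in the neutrophil and macrophage levels was not tested.

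Within the macrophage class Saa3 was higher in cells with Arg1, an arginase gene that alone does not name a macrophage type. Cells with at least 200 CPM of Arg1 had a Saa3 level of 15044 CPM for normal, 6499 for irradiated, 3024 for continuous, 8146 for acute and 12719 for chronic. The other macrophages of those libraries had 3511, 3064, 2190, 3025 and 2434 CPM. Arg1 cells were higher in all 5 libraries, by 4.28-fold, 2.12-fold, 1.38-fold, 2.69-fold and 5.23-fold, and pretreatment held fewer than 20 of them. The clustering made without the 6 genes pools all libraries and so mixes their levels. In it a macrophage cluster of 5283 cells had 19191 CPM of Saa3 and the other 4 macrophage clusters 2302 to 5314 CPM. Its leading genes were Arg1 and Mmp12, with Nos2, F13a1 and Ptges also among them. Of those 5283 cells, 2787 were in the macrophage class by markers.

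Macrophages with Ly6c2 or Chil3, genes of recently arrived monocytes, had more Saa3 than the rest in all 6 libraries. The ratio was 1.20 to 1.66 outside pretreatment. In pretreatment 49 such cells held 360 CPM and the other macrophages 4.13 CPM, a ratio of 87.1. Those 49 cells held 210 of the 224 Saa3 UMIs of its macrophage class.

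Saa1 and Saa2, the serum amyloid A forms best known from liver, stood far lower in fibroblasts than in adipocytes outside pretreatment. The genes are near-identical paralogs, and a 3' read may not tell them apart, so the split between them is uncertain. In adipocytes Saa1 stood at 741 CPM (613 to 888) for normal, 2375 for irradiated, 4356 for continuous, 777 for acute and 1041 for chronic. Saa2 stood at 532 (424 to 659), 937, 2788, 530.2 and 1193 CPM in the same order. Both were highest in continuous, and the intervals of normal and acute overlapped for each gene. The intervals do not cover the spread between cells. At full depth a Saa1 UMI was seen in 36.7%, 64.5%, 75.7%, 38.6% and 60% of adipocytes in the same order. For Saa2 the shares were 33.3%, 50%, 54.1%, 25.3% and 60%. Pretreatment had 2 adipocytes, too few for a level.

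In fibroblasts Saa1 stood at 86.8, 124, 8.97, 134, 43.4 and 91.2 CPM. At full depth a Saa1 UMI was seen in 12.2%, 16.5%, 3.44%, 18.7%, 8.17% and 18.6% of them. Saa2 stood at 5.45, 12.8, 0.961, 19.8, 6.51 and 22.4 CPM, from 6 to 118 UMIs per library. The adipocyte level was 8.53-fold to 32.6-fold above the second class for Saa1 and 53.3-fold to 97.7-fold for Saa2 in the 5 libraries other than pretreatment. Adipocytes supplied 25.4%, 57.7%, 40.7%, 64.5% and 62.4% of all Saa2 UMIs in normal, irradiated, continuous, acute and chronic. In normal, cells left out for markers of a second class held more, 45.6% (151 UMIs in 9 cells). Of all Saa1 UMIs adipocytes supplied 8.04%, 39.4%, 41.1%, 37.0% and 46.6% in the same order. Fibroblasts supplied 55.8%, 38.0%, 18.2%, 24.2% and 23.0%.

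Keratinocytes of 2 libraries also held Saa1, at 85.8 CPM (76.6 to 95.8) in continuous and 30.2 CPM in chronic. The other libraries had 5.81 CPM for normal, 4.80 for irradiated, 8.84 for acute and none for pretreatment, where the interval allows up to 2.57 CPM. The level in continuous was 17.9-fold that in irradiated (9.29 to 39.4), with a Saa1 UMI in 4.90% of its keratinocytes. So 19 of 388 cells carried it, and without a class of adipocytes the log2 ratio was 1.38 in place of 4.16.

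Hp, the haemoglobin scavenger, was far higher in adipocytes than in any other class. In adipocytes it reached 17285 CPM (16643 to 17946) for normal, 21914 for irradiated, 34047 (33483 to 34618) for continuous, 18142 for acute and 28379.6 for chronic. Every one of these levels was above every fibroblast level, by 10.9-fold, 29.3-fold, 29.2-fold, 18.2-fold and 27.7-fold within a library. Thinned to 1000 UMIs, 96.6% of adipocytes held Hp in normal and 100.0% in irradiated, continuous, acute and chronic.

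Although adipocytes held 0.392%, 0.921%, 1.02%, 1.37% and 1.46% of all UMIs in those libraries, they held 9.42%, 38.6%, 41.8%, 39.1% and 56.7% of all Hp UMIs. Fibroblasts held 51.3%, 24.3%, 20.6%, 25.1% and 11.6%. Fibroblasts were thus the main holder of Hp in normal and adipocytes in the other 4. In pretreatment 2 adipocytes alone held 53.6% of the Hp UMIs and fibroblasts 0.69%.

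**Figure D2:**
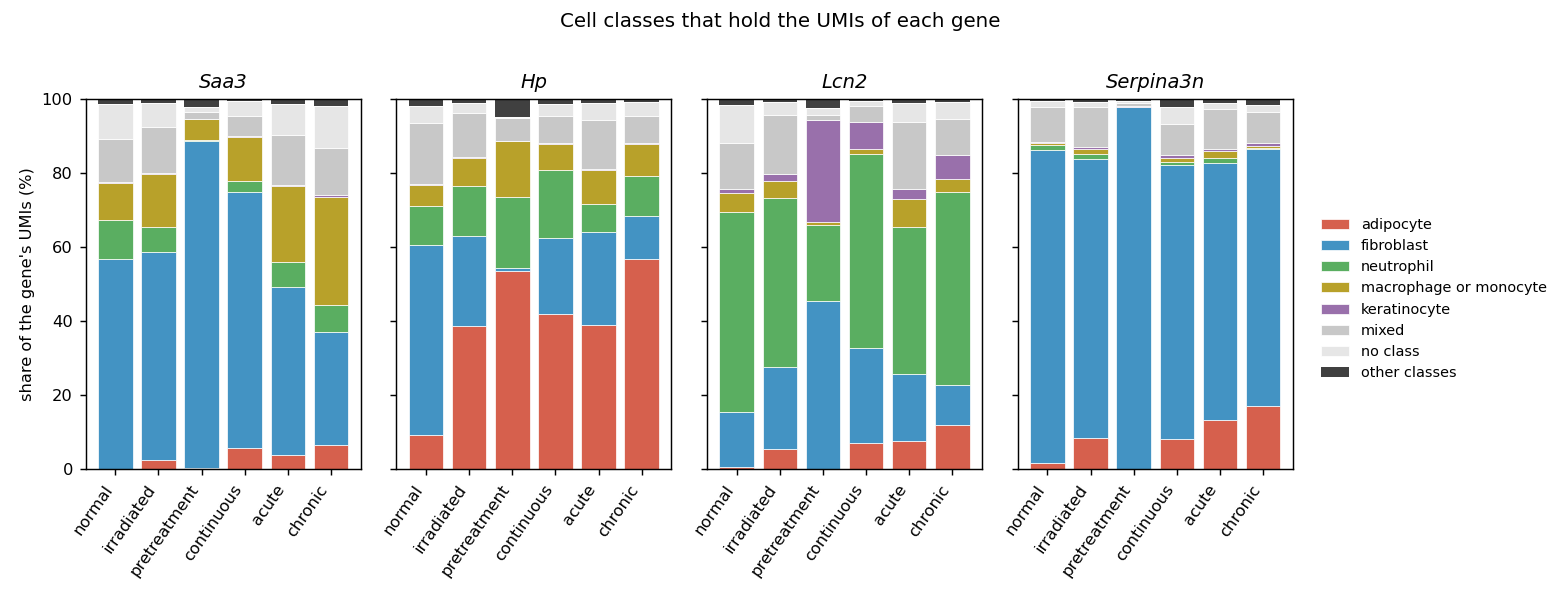
Share of the UMIs of Saa3, Hp, Lcn2 and Serpina3n (percent, stacked to 100) that fell into each cell class, 1 bar per library. Adipocytes take 9.42% of Hp in normal and 56.7% in chronic, neutrophils 20.5% to 54.0% of Lcn2, and fibroblasts 69.3% to 97.7% of Serpina3n.

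In fibroblasts Hp stood at 1588 CPM (1562 to 1613) for normal, 749 for irradiated, 0.801 (0.260 to 1.87) for pretreatment, 1166 for continuous, 994 for acute and 1026 for chronic. Pretreatment rested on 5 UMIs in 465 cells. Without it the range was 749 to 1588 CPM. Thinned, 33.9%, 25.3%, 0%, 18.6%, 26.8% and 29.7% of fibroblasts held Hp, where the 0 allows a share of up to 0.806%. The T cell shares were 4.71%, 5.19%, 0%, 2.36%, 7.23% and 2.57%. Hp in fibroblasts was 3.42% to 9.19% of the adipocyte level in the libraries other than pretreatment. In the same fibroblasts Adipoq, the adipocyte hormone adiponectin, was 0.0141% to 0.0389% of its own adipocyte level, and the adipocyte protease Cfd 0.0053% to 0.183%, the highest being acute with 226 UMIs. Both are markers of the adipocyte class, so their low level in fibroblasts is partly set by the gate. The part of adipocyte RNA in the fibroblast Hp level was not tested.

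Neutrophils, which store haptoglobin in their granules, held Hp in all 6 libraries, at 382, 358, 1252, 663, 341 and 607 CPM. The highest value was that of pretreatment, from 140 UMIs in 21 cells (1054 to 1478 CPM), so its low total of Hp did not extend to its neutrophils. Pericytes or smooth muscle cells, which wrap small vessels, stood at 1245 CPM in normal and 111.6 to 507 CPM in the 4 other libraries with at least 20 of them, from 31 to 249 UMIs. All 31 Hp UMIs of pretreatment came from 1 of 35 such cells, and the 76 of continuous from 4 of 70. Among macrophages or monocytes the Hp levels were 206, 146, 27.7, 216, 191 and 197 CPM. Those with Ly6c2 or Chil3 had more Hp than the rest in 6 of 6 libraries, by 1.59-fold to 36.8-fold. This range includes pretreatment, whose macrophage class held 110 Hp UMIs in 29 of 299 cells.

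Lcn2, the siderophore trap, had neutrophils as its largest source in every library except pretreatment, where fibroblasts held more of it. Neutrophils stood at 5917 CPM (5864 to 5971) for normal, 3371 for irradiated, 3041 (2727 to 3383) for pretreatment, 4361 for continuous, 3024 for acute and 4716 for chronic. The interval of pretreatment overlapped those of irradiated and acute, and normal was the highest. Pretreatment was within this range, in contrast to its low Saa3. Neutrophils held 54.0%, 45.6%, 20.5%, 52.3%, 39.5% and 51.9% of all Lcn2 UMIs.

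The level as CPM was nevertheless higher in adipocytes than in neutrophils in irradiated, continuous, acute and chronic. Adipocytes stood at 3015 CPM for normal, 8537 for irradiated, 13654 for continuous, 5941 for acute and 9789 for chronic. The summed level of 10 neutrophil markers in adipocytes was 5130.5, 3948, 4000.1, 3024 and 1967 CPM in the same libraries. The part of neutrophil RNA in these levels was not tested.

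In fibroblasts Lcn2 stood at 1395 CPM for normal, 1902 for irradiated, 120.0 for pretreatment, 3338 for continuous, 1188 for acute and 1571 for chronic. Continuous was the highest, and the neutrophil markers summed in these fibroblasts to 2854, 3482, 428, 2412, 2370.1 and 887 CPM, whose part in the levels was not tested. Keratinocytes had 714, 784, 319, 1526, 713 and 859.5 CPM of Lcn2. In pretreatment, where T cells had 3.32 CPM and neutrophils were few, keratinocytes held 27.7% of the Lcn2 UMIs and fibroblasts 45.2%.

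Lcn2 and Hp were both unevenly spread among neutrophils. Cells with only Ccl3, Ccl4 or Il1a, RNAs of activated neutrophils, had less of both than other neutrophils in all 5 libraries with enough cells, at 0.443 to 0.846 times for Lcn2 and 0.603 to 0.770 times for Hp. Cells that also held granule RNA (Ltf, Camp, Ngp, Mmp8, Cd177 or Itgb2l) had more of both in the same 5 libraries, at 1.20 to 2.09 times for Lcn2 and 1.24 to 1.60 times for Hp. These cells were also deeper, with a median of 1067 to 2916 UMIs against 830 to 1981.5, and in cells this shallow 1 UMI is enough to pass 200 CPM, so absence of a marker says little. The cells with both RNAs were 48.2% to 76.3% of the neutrophils and those with only Ccl3, Ccl4 or Il1a 21.3% to 50.6%. Together they were nearly all neutrophils, so the 2 comparisons are close to 1 contrast seen from both sides.

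Serpina3n, the protease inhibitor, was mainly a fibroblast and adipocyte RNA. Fibroblasts had 755 CPM (737 to 773) for normal, 945 for irradiated, 3449 (3403 to 3495) for pretreatment, 1479 for continuous, 974 for acute and 1307 for chronic. Adipocytes had 950.1, 1939, 2356, 2193 and 1815 CPM outside pretreatment. Neutrophils, macrophages and T cells had 0 to 20.5 CPM in every library and keratinocytes 7.66 to 36.8 CPM. Pericytes or smooth muscle cells came between, at 70.0 to 389 CPM in the 5 libraries with enough of them, and Schwann cells at 60.3 to 440 CPM in 4.

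Fibroblasts held 84.5%, 75.5%, 97.7%, 74.1%, 69.4% and 69.3% of all Serpina3n UMIs. Thinned, 42.7%, 46.4%, 77.2%, 60.2%, 45.7% and 54.9% of fibroblasts held it, and 0.514% to 1.76% of T cells. Pretreatment thus had the highest level and the highest share at equal depth, the reverse of its place for Saa3, Hp and Lcn2.

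Not all fibroblasts carried the same mix. Those with at least 200 CPM of Cxcl5, a neutrophil-attracting chemokine, had 43595 CPM of Saa3 for normal, 35324 for irradiated, 37562 for continuous, 26200.1 for acute and 29903.5 for chronic. Fibroblasts without it had 18593, 17744, 10837, 17426 and 13447 CPM. The Cxcl5 cells were higher in 5 of 5 libraries, by 1.504-fold to 3.47-fold, and pretreatment held fewer than 20 of them.

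The ratio was larger for Hp than for Saa3 in normal, continuous and acute. For Hp it was 2.92, 1.62, 9.60, 2.21 and 2.13 in normal, irradiated, continuous, acute and chronic, with 2127 CPM against 222 in continuous. Lcn2 was also higher in all 5, by 1.31-fold to 4.91-fold, whereas Serpina3n was lower in all 5, at 0.731 to 0.982 times. Cxcl5 cells were deeper, with medians of 4933, 5955, 13126, 4556 and 9245 UMIs.

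Fibroblasts with Pi16 or Dpp4, markers of the adventitial or universal fibroblast type, had more Lcn2 than the rest in 6 of 6 libraries. Their Lcn2 stood at 1740.1 CPM for normal, 3111 for irradiated, 192 for pretreatment, 4696 for continuous, 2051 for acute and 2648 for chronic, against 1114, 1161, 9.38, 2423, 853 and 1040.3 CPM. The ratio was 1.56 to 2.68 outside pretreatment and 20.4 within it. Hp showed no shared direction, being lower in these cells in 4 libraries (0.502 to 0.950 times), higher in irradiated (1.12 times) and seen in them alone in pretreatment, at 1.32 CPM.

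**Figure D3:**
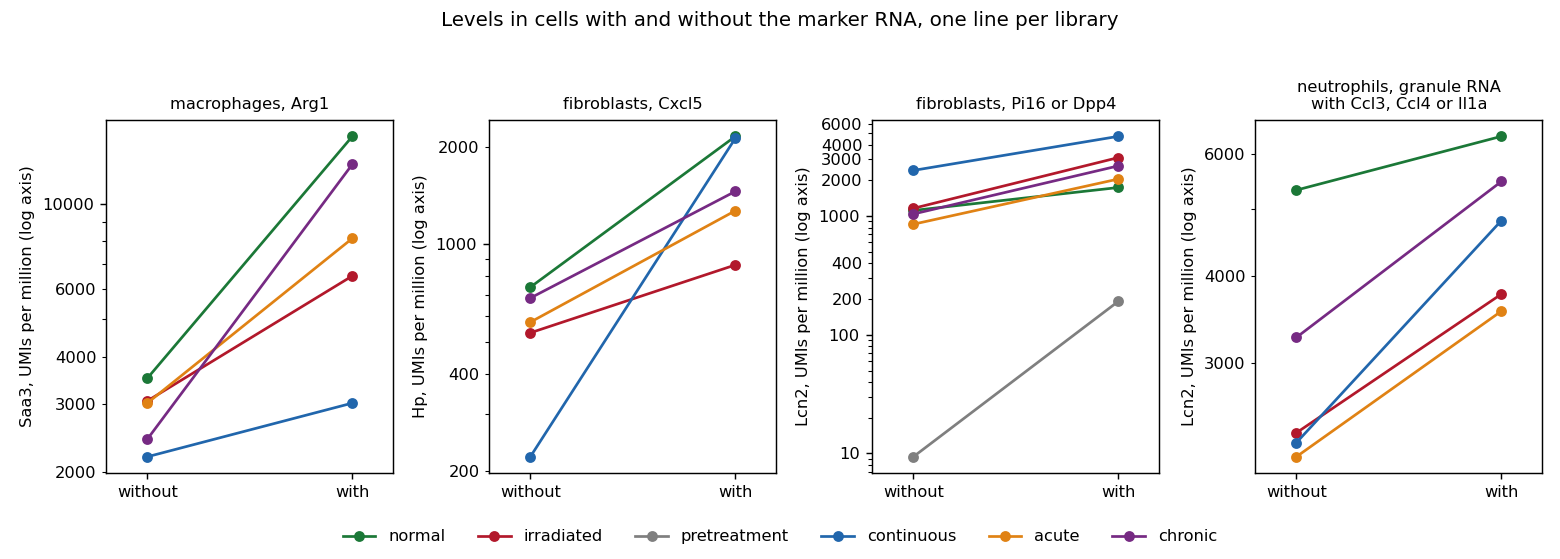
Levels (CPM, log axis) in cells without and with at least 200 CPM of a marker, 1 line per library. Every line goes up: Saa3 with Arg1 in macrophages, Hp with Cxcl5 and Lcn2 with Pi16 or Dpp4 in fibroblasts, and Lcn2 with both granule and Ccl3, Ccl4 or Il1a RNA in neutrophils, where normal goes from 5316 to 6356 CPM.

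Single fibroblasts with Saa3 were compared with those without it at equal depth for Hp, Lcn2 and Serpina3n, but not for the rarer Saa1 and Saa2. Thinned to 1000 UMIs, Hp was seen in 37.8% of Saa3-positive and 6.67% of Saa3-negative fibroblasts in normal, and in 27.0% and 8.15% in irradiated. The pairs were 26.0% and 4.50% in continuous, 31.8% and 9.47% in acute and 38.9% and 7.22% in chronic. No Hp was left after thinning in pretreatment, in either kind of cell.

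Lcn2 showed the same direction in 6 of 6 libraries. It was seen in 48.1% of Saa3-positive and 19.4% of Saa3-negative fibroblasts in normal, and in 19.0% and 1.93% in pretreatment. Serpina3n also did, at 43.4% and 30.3% in normal and 85.7% and 73.2% in pretreatment, where most fibroblasts without Saa3 held Serpina3n. Free RNA reaches both kinds of cell, and its part in these shares was not tested.

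The comparison by the labels of irradiated with normal skin gave different answers in the 2 main classes. In fibroblasts Hp was 2.12-fold lower in irradiated and Saa3 1.15-fold lower, while Saa2 was 2.35-fold higher (1.68 to 3.33) from 51 and 118 UMIs, Saa1 1.43-fold, Lcn2 1.36-fold and Serpina3n 1.25-fold higher. Of the 6 members, 1 was at least 2-fold higher and 1 at least 2-fold lower, against 1.15% and 0.645% of the 9760 genes with at least 100 UMIs over both libraries. Without a class of adipocytes, Hp stood at -0.96 and Saa2 at 0.74 on the log2 scale, both under 2-fold.

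In adipocytes all 6 were higher in irradiated than in normal. Saa1 was 3.20-fold higher (2.65 to 3.91), Saa3 2.91-fold (2.75 to 3.08), Lcn2 2.83-fold (2.58 to 3.12), Serpina3n 2.04-fold (1.72 to 2.44), Saa2 1.76-fold and Hp 1.27-fold. So 4 of 6 were at least 2-fold higher and 0 lower, against 4.86% and 2.27% of 926 genes. This rests on 30 adipocytes of normal and 76 of irradiated, and all 4 of those ratios came under 2-fold (log2 0.74 to 0.98) when cells with markers of a second class were kept. Fibroblast markers summed to 3762 CPM in the adipocytes of normal and 1587 in those of irradiated.

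In neutrophils Saa3 was 2.44-fold lower in irradiated than in normal, the 1 of 5 members measured there that passed 2-fold, against 1.65% of 6844 genes higher and 1.88% lower. In macrophages or monocytes Lcn2 was 2.40-fold lower and Saa3 1.58-fold lower, again 1 of 5 past 2-fold, against 1.49% higher and 0.552% lower. The part of free RNA in these macrophage ratios was not tested. In keratinocytes neither of the 2 members measured, Saa3 and Lcn2, reached 2-fold, against 2.09% higher and 0.409% lower.

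**Figure D4:**
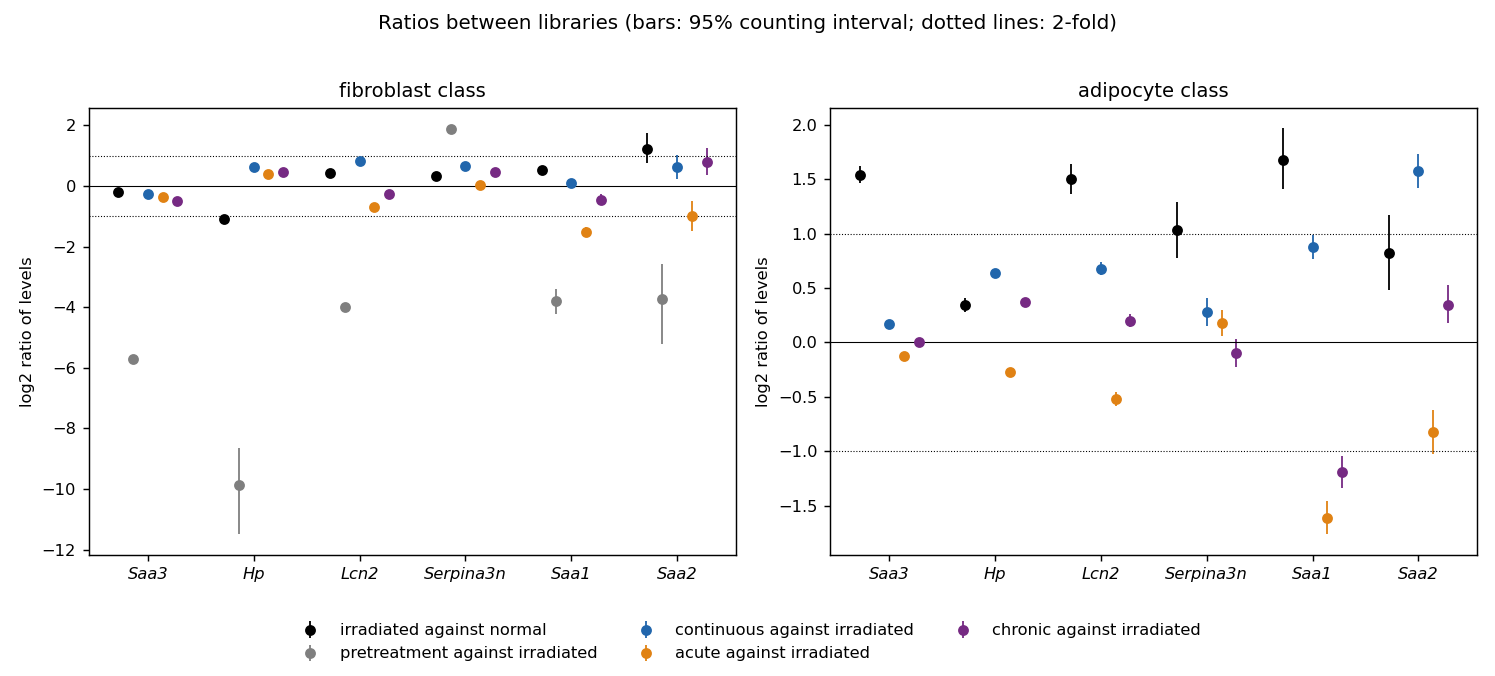
Ratio of each gene between 2 libraries (log2, with the 95% counting interval) in fibroblasts and in adipocytes; pretreatment had too few adipocytes, and dotted lines mark 2-fold. In fibroblasts of pretreatment Hp lies at -9.87 and Saa3 at -5.71 while Serpina3n lies at 1.87, and in adipocytes of irradiated against normal all 6 genes lie above 0.

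The other comparisons set each patch schedule against irradiated. They share the irradiated library, so they are not independent of each other, and each library's own values stand side by side above. Pretreatment differed most. In its fibroblasts Hp was 934-fold lower (from 5 UMIs), Saa3 52.4-fold, Lcn2 15.8-fold, Saa1 13.9-fold and Saa2 13.3-fold lower, and Serpina3n was 3.65-fold higher (3.56 to 3.74). That makes 1 member at least 2-fold higher and 5 lower, against 7.51% and 11.4% of 9282 genes.

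Other classes of pretreatment did not share every difference. In macrophages or monocytes 4 of 5 members were at least 2-fold lower, against 13.4% of genes higher and 12.6% lower. Saa3 was 80.4-fold and Lcn2 72.1-fold lower. T cells, the gauge of free RNA, also had less of both, with 3657 Saa3 and 426 Lcn2 UMIs in 941 cells of irradiated. In 119 cells of pretreatment they held 2 and 3. Macrophages and T cells had close Lcn2 levels in both libraries. In irradiated, macrophages held 4.53% of Lcn2 UMIs with 27.8% of all UMIs, and T cells 0.542% with 3.33%. In pretreatment these were 0.785% with 22.1% and 0.181% with 5.03%. In its 21 neutrophils Hp was 3.50-fold higher (2.93 to 4.14), Lcn2 stood at 0.902 times (0.808 to 1.00) and Saa3 was 169-fold lower. There 1 of 4 members was higher and 2 lower, against 19.7% and 23.6%, so shares of that size were common among all genes of these few cells. Keratinocytes had both measured members at least 2-fold lower, against 10.3% higher and 21.6% lower. The part of free RNA in the lower Saa3 and Lcn2 levels of these classes was not tested.

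In fibroblasts of continuous, no member passed 2-fold, against 2.35% of genes higher and 4.93% lower. Lcn2 was 1.76-fold higher, Hp and Serpina3n 1.56-fold each, Saa2 1.54-fold (1.19 to 2.01) and Saa1 1.08-fold (0.980 to 1.18), while Saa3 stood at 0.826 times. In its adipocytes Saa2 was 2.97-fold higher (2.67 to 3.32), Saa1 1.83-fold, Lcn2 1.60-fold, Hp 1.55-fold, Serpina3n 1.22-fold and Saa3 1.12-fold. There 1 member was at least 2-fold higher and 0 lower, against 3.3% and 9.47% of 1183 genes.

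The remaining classes of continuous held less Saa3. Saa3 was 4.46-fold lower in neutrophils (1 of 5 members lower and 0 higher, against 23.9% and 1.85% of genes) and 2.01-fold lower in macrophages or monocytes. The neutrophil count of lower members is a share near that over all genes. Macrophages had 2 of 6 members lower and 1 higher, against 5.92% and 4.1%. The higher one was Saa2, from 93 UMIs in 12 of 2156 cells against 19 UMIs in irradiated. Keratinocytes had 1 of 5 higher (Saa1) and 1 lower (Saa3), against 6.42% and 9.24%. T cells, the gauge of free RNA, had 9.92-fold less Saa3 in continuous than in irradiated. The part of free RNA in the lower neutrophil, macrophage and keratinocyte levels was not tested.

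Acute was the library closest to irradiated. In its fibroblasts Saa1 was 2.87-fold lower, the 1 member past 2-fold, against 0.2% of genes higher and 0.158% lower. Saa2 stood at 0.508 times (0.359 to 0.712), Lcn2 at 0.625, Saa3 at 0.779, Serpina3n at 1.03 and Hp at 1.33 times. In its adipocytes Saa1 was 3.06-fold lower, again the 1 member past 2-fold, against 1.79% higher and 1.31% lower. No member passed 2-fold in neutrophils (0.589% higher and 0.236% lower, with Saa1 at the limit from 91 and 72 UMIs), macrophages or monocytes (0.18% and 0.36%) or keratinocytes (0.495% and 1.56%).

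In chronic, no member passed 2-fold in fibroblasts, against 1.31% of genes higher and 2.97% lower. Saa2 was 1.75-fold higher (1.28 to 2.38), Serpina3n 1.38-fold and Hp 1.37-fold, and Lcn2 stood at 0.826, Saa1 at 0.734 and Saa3 at 0.711 times. In its adipocytes Saa1 was 2.28-fold lower, 1 of 6 past 2-fold, against 2.39% higher and 5.21% lower, and Hp was 1.295-fold higher. In keratinocytes Saa1 was 6.29-fold higher (3.19 to 14.1) while Saa3 and Serpina3n were at least 2-fold lower, against 1.4% of genes higher and 4.31% lower. T cells, the gauge of free RNA, also had less Saa3 in chronic than in irradiated. The part of free RNA in the keratinocyte Saa3 ratio was not tested. That Saa1 value came from 103 UMIs in 8 of 346 cells against 9 UMIs in irradiated, and without a class of adipocytes it lay below irradiated (log2 -0.28). Neutrophils and macrophages had 1 member each at least 2-fold lower, Serpina3n at 3.71 and 2.70 CPM, against 6.99% and 3.33% lower and 1.87% and 1.04% higher. The fibroblast marker Dcn in these neutrophils and macrophages stood at 21.7 and 16.1 CPM, against 137 and 104 CPM in irradiated. The part of fibroblast RNA in the 2 Serpina3n ratios was not tested.

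Over the 48 library and class combinations with at least 50 cells, some genes followed the members closely. As a description, the Pearson r of log2(CPM + 5) was taken over 7970 genes, with points that share libraries, depth and cell class, and repeated over the 42 points without pretreatment. Saa3 was most like C3, the central complement protein (r 0.87, and 0.93 without pretreatment), then Dram1 (0.81), Hp (0.80, and 0.74 without), Pdpn (0.80) and Inhba (0.79, and 0.60 without). Hp was most like Sod2 (0.80), Saa3, Bnip3 (0.78), Dram1 (0.77) and C3 (0.76).

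Lcn2 was most like Steap4, a metal reductase (0.85), F3, tissue factor (0.85), Irak3 (0.80), and the calprotectin genes S100a8 (0.79, and 0.69 without pretreatment) and S100a9 (0.79, and 0.68 without). Serpina3n was most like Ntrk2, Zfhx4, Entpd2, Snhg18 and Slit2, all at 0.92. Its r with the other members was 0.69 for Saa1, 0.62 for Saa2, 0.52 for Hp, 0.42 for Saa3 and 0.35 for Lcn2. Saa3 in turn had r 0.59 with Saa1 and 0.40 with Saa2. Adipocytes gave 2 of the 48 points.

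Related genes were taken from 4 lists: inducing cytokines and their receptors (18), transcription factors and feedback genes (10), other acute-phase products (34, of which 33 were matched) and receptors, ligands and targets of the members (20). In fibroblasts of irradiated against normal, 4 of 56 with at least 100 UMIs were at least 2-fold higher and 0 lower, against 1.15% and 0.645% of all genes. Other acute-phase products had 2 of 17 higher and a median log2 ratio of 0.59, against -0.01 over all genes. The cytokine Lif stood at 109.8 CPM against 36.7 (2.99-fold) and Il17a at 13.3 against 4.91 (2.72-fold), the second being highest in T cells. The lowest ratios were those of Hmox1, the haem-degrading oxygenase, and Slc22a17, a lipocalin receptor, each 1.35-fold lower.

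In adipocytes of the same comparison 10 of 29 related genes were at least 2-fold higher and 0 lower, against 4.86% and 2.27% of all genes, with a median log2 ratio of 0.36 against -0.06 over all genes. Hpx, which binds free haem, was 2.94-fold higher, and Hba-a1, a haemoglobin gene of red cells, 2.96-fold. Ptx3, a soluble pattern receptor, was 1.45-fold and Hmox1 1.82-fold lower. Of the 10 higher genes 7 were other acute-phase products, out of 15 measured.

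In fibroblasts of pretreatment 27 of 56 related genes were at least 2-fold lower than in irradiated and 3 higher, against 11.4% and 7.51% of all genes, with a median of -0.77 against -0.01. The 3 higher are thus a share near that over all genes. Other acute-phase products had 11 of 17 lower (median -1.50), receptors, ligands and targets 8 of 13 (median -2.07), cytokines and receptors 7 of 16 and transcription factors 1 of 10. Serpina3c, a relative of Serpina3n, was 10.0-fold higher (89.4 against 8.90 CPM) and Lbp, the lipopolysaccharide carrier, 2.79-fold higher (782 against 281 CPM). Mmp9, a partner of lipocalin 2, was 919.9-fold lower from 1 UMI, and Il1a was not seen, against 51.5 CPM in irradiated. Both are neutrophil RNAs here, and neutrophil markers in fibroblasts stood at 3482 CPM in irradiated and 428 in pretreatment, whose part in these ratios was not tested.

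Fibroblasts of continuous had 13 of 55 related genes lower and 3 higher, against 4.93% and 2.35% of all genes (median -0.25 against -0.02). Serpina3c was 2.32-fold and Serpina3f 2.26-fold higher, and Tnf 7.90-fold and Il1rn 6.06-fold lower, both of them highest in neutrophils. Chronic had 14 of 55 lower and 1 higher, against 2.97% and 1.31% (median -0.32 against 0.02), with Serpina3c 2.44-fold and C3 1.79-fold higher (3067 against 1709.7 CPM), Tnf 4.43-fold lower and Cd36, a scavenger receptor, 7.14-fold lower. Acute had 2 of 56 lower and 0 higher, against 0.158% and 0.2% (median -0.12 against 0.04). Those were the haemoglobin genes Hbb-bs and Hba-a1, 2.01-fold and 2.07-fold lower, and the highest ratios were 1.43 for Serpina3g and 1.29 for Tsc22d3.

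In adipocytes of continuous, 9 of 34 related genes were at least 2-fold lower and 0 higher, against 9.47% and 3.3% of all genes (median log2 ratio -0.43 against -0.14). Acute had 1 of 37 lower and 0 higher, against 1.31% and 1.79% (median 0.02 against 0.07), a count near that over all genes. Chronic had 5 of 34 lower and 0 higher, against 5.21% and 2.39% (median -0.37 against -0.03). The highest ratios were 1.85 for Cebpd and 1.57 for Tnfrsf1a in continuous, 1.90 for Tsc22d3 and 1.70 for Lif in acute, and 1.55 for Orm1, an acid glycoprotein of the acute phase, and 1.47 for Tnfrsf1a in chronic. The lowest were Tnf and Hba-a1, both unseen in continuous against 228 and 244 CPM, Hpx (2.49-fold lower) and Lbp (1.95-fold lower) in acute, and Hbb-bs (108-fold lower) and Hba-a1 (32.9-fold lower) in chronic. The haemoglobin genes come from red cells, whose markers summed to 1387 CPM in adipocytes of irradiated, 83.4 for continuous, 996 for acute and 20.4 for chronic. Their part in these ratios was not tested.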

How the data were processed

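Per the labels' protocols, unsorted skin cells came from a collagenase digest; 10x 3' v3 libraries were run on a NextSeq 500. The submitters' processing notes name Cell Ranger, Seurat 5.0.1 and the pig build Sscrofa11.1, although all features are mouse identifiers. The deposited files hold raw counts, 1 UMI count for each barcode and gene, and their headers name Cell Ranger 6.0.0. The mouse build is not given in the sources used here.

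Cells needed 500 UMIs, 300 genes and at most 20% mitochondrial UMIs. A marker counted in a cell where its CPM was above its library's mean. A cell took the class with the largest share of its markers, at least 3. Cells whose second class also had 3 markers and over 0.5 of that share (3.94% to 13.0%) were left out as possible doublets; no doublet caller was run. The mean rule, the adipocyte class and the marker groups within classes were chosen after the data were seen. The members and lists were chosen with earlier results of these data known.

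UMIs were summed per class and library. Levels needed 20 cells, and genes counted as past 2-fold needed 100 UMIs over both libraries, with 0.5 UMIs added to each sum. With 1 library per label no test was possible. For Saa3, Hp, Lcn2 and Serpina3n the 5 most similar genes are named, and for related genes the 2 highest and 2 lowest ratios, printed for fibroblasts and adipocytes. Clusters came from scanpy 1.11.5 (Leiden, resolution 1) without the members. The ratios and their intervals, the gate and the thinning were tested on simulated data. Python 3.11.15, numpy 2.4.6, scipy 1.17.1 and pandas 2.3.3 were used. The hashtags could not split libraries: the rule of 80% of at least 10 hashtag UMIs assigned 61.9% of cells in normal, 10961 of 10967 to 1 tag, and under 1% in the other three.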

Additional observations from a re-analysis of the deposited data

How the results depend on the processing

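No paired analysis was possible because each label has 1 library. The choice of cell filter, gate, scaling and averaging moved sizes and some directions. The direction held for 85 of 96 ratios without the adipocyte class, 92 of 103 with 1-UMI markers and 108 of 116 with clusters. It held for 119 of 120 when mitochondrial and haemoglobin genes were left out of the scaling. Of the ratios past 2-fold, 25 of 31, 28 of 30, 29 of 35 and 38 of 38 stayed so under these settings. In fibroblasts of pretreatment against irradiated, Saa3 (log2 -5.71) lay at -5.66 with 4 markers for a class, -5.63 with classes from clusters, -5.76 with median-of-ratios scaling and -5.82 with markers counted from 1 UMI. Serpina3n (1.87) lay at 1.92, 1.98, 1.82 and 1.63 under those settings, at 1.91 with cells of a second class kept and at 1.79 with the mean of each cell's CPM. The number of members past 2-fold in fibroblasts of continuous, acute or chronic (1) was 2 under the stricter cell filter, the per-cell mean and median-of-ratios scaling. It was 3 with 4 markers, with second-class cells kept, with clusters, with 1-UMI markers and without the adipocyte class, with Saa2 among those added. The share of fibroblasts with Saa3 was 96.5% in irradiated and 17.6% in pretreatment, against 85.5% and 8.55% after thinning to 1000 UMIs and 90.6% and 12.0% when 2 UMIs were needed. In the comparison of irradiated with normal, log2 ratios that came under 2-fold were, without the adipocyte class, Hp (-0.96) and Saa2 (0.74) in fibroblasts, and, with second-class cells kept, Saa3 (0.94), Saa1 (0.94), Lcn2 (0.74) and Serpina3n (0.98) in adipocytes. Without the adipocyte class, Saa1 in keratinocytes of chronic went below irradiated (log2 -0.28). The 1-UMI gate and the setting without adipocytes were added after the data were seen, and the causes were not tested. Hp was highest in adipocytes in 5 libraries under each setting that has the class. Depth limits Saa1 and Saa2 in fibroblasts, Hp there in pretreatment, and all values from the 21 neutrophils and 2 adipocytes of pretreatment.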

Other observations

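A small set of cells with Wif1, Pappa2, Coch or Slc26a7 RNA (at least 2 of these genes), chosen after the data were seen, held much of the Saa2 of 1 library. In continuous, 155 such cells held 37.1% of all Saa2 UMIs and 19.7% of all Saa1 UMIs, at 673 CPM of Saa2 (632 to 715) and 551 CPM of Saa1. In chronic 40 such cells stood at 419 CPM of Saa2, and in normal, irradiated and acute 93, 42 and 49 cells stood at 77.0, 88.1 and 57.2 CPM. These levels rest on few cells. A Saa2 UMI was seen in 5% of the set in chronic, 3.23% in normal, 7.14% in irradiated, 18.4% in acute and 24.5% in continuous. In continuous 75 of the cells had no marker class and 57 were fibroblasts, and the fibroblasts stood at 45.2 CPM of Saa2 against 1279 in those without a class. A cluster of 945 cells led by Igfbp3, Enpp2, Pappa2 and Coch, which stayed unnamed, held 444 CPM of Saa2 and 269 CPM of Saa1 over all libraries.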
